A study of Mus musculus with 8 samples.

Results

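Matricellular proteins are secreted into the extracellular matrix, where they tune how cells attach to it and how growth factors reach their receptors, rather than carry load themselves. Thrombospondins (Thbs1 to Thbs4 and Comp) bind collagens, proteoglycans and cell surface receptors, and THBS1 can also release active TGF-beta from its latent complex. Tenascins (Tnc and Tnxb), the cartilage intermediate layer proteins (Cilp and Cilp2) and dermatopontin (Dpt) bind collagen or growth factors, and in tendon many of these proteins are found between the collagen fibrils or at the attachment to muscle and bone.

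The 10 genes described here, Cilp, Cilp2, Comp, Thbs1, Thbs2, Thbs3, Thbs4, Tnc, Tnxb and Dpt, were taken from the deposited expression table by symbol, and all 10 were among its 19301 genes. They were chosen by a list of symbols drawn up with their FPKM in HFHG and low glucose medium already known, so their levels and differences between the media are a description and no p-value is given for any of them. The cells were primary tendon stem cells (TSCs) of the mouse, grown for 4 days in low glucose medium with DMSO (4 libraries) or in HFHG medium, which had high glucose and palmitic acid, a saturated fatty acid (4 libraries). No genotype, age or sex of the donor mice is given in the sample labels, and the libraries of a medium are described as biological replicates. Whether these came from separate animals or cultures is not stated, and p-values measure the spread between these libraries. The medium changed glucose and fatty acid together, and the effects of glucose, of palmitic acid and of the vehicle cannot be told apart.

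Values are FPKM, the reads of a gene divided by its length and by the mapped reads of the library, so that levels of different genes can be set side by side. The libraries held 34308108 to 37362725 reads. The first principal component separated the media (81.0% of the variance), and low glucose replicate 4 stood apart from the other libraries on the second (4.18%). Fold changes are on the log2(FPKM + 0.1) scale, HFHG minus low glucose, from a limma fit over 11710 genes with at least 0.5 FPKM in at least 4 libraries, and that scale understates the change of low genes. Of the 10 genes, 9 passed this filter and Cilp2 did not. In that fit 64.8% of all genes had an adjusted p-value below 0.05 (limma, Benjamini-Hochberg), 34.0% of all genes higher in HFHG and 30.8% lower.

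Of the tendon markers, Scx, the transcription factor of tendon progenitors, was low at 2.27 FPKM in HFHG and 1.45 in low glucose on average. Tnmd, a membrane protein of mature tendon cells, was at 1.10 and 0.614. Both were higher in HFHG (log2 fold change 0.61 and 0.86, adjusted p = 0.0138 and 0.0164, limma). The libraries of Scx overlapped, at 1.53 to 2.88 FPKM in HFHG and 0.983 to 1.76 in low glucose. Mkx, another tendon transcription factor, was lower in HFHG, at 6.73 against 8.62 FPKM. The tendon list of 10 genes, which shares Comp and Thbs4 with the genes described here, summed to 1556 to 1601 FPKM in HFHG and 1046 to 1068 in low glucose, with Dcn the most abundant, and of the 10 tested 6 were higher in HFHG and 2 lower. The 7 mesenchymal progenitor markers summed to 1102 to 1131 FPKM in HFHG and 723 to 751 in low glucose, and 6 were higher and 1 lower. All 7 chondrocyte markers (Sox9, Col2a1, Acan, Matn3, Col9a1, Col11a2 and Hapln1) averaged below 0.5 FPKM, a measurement that stands beside Cilp and Comp because both are also genes of cartilage. The 9 macrophage markers summed to 1711 to 1762 FPKM in HFHG and 1875 to 1955 in low glucose, most of it Lyz2. Of the 8 that were tested 7 were lower in HFHG and 0 were higher. The sum follows Lyz2, at 1637 FPKM in HFHG and 1765 in low glucose on average. Adgre1 was at 26.5 and 38.0 FPKM, C1qa at 18.6 and 36.6, and Ptprc, which did not pass the threshold, at 1.98 and 2.26. The 6 mural cell markers summed to 12.3 to 13.9 FPKM in HFHG and 6.96 to 7.94 in low glucose, and 3 of the 3 tested were higher. The 6 adipocyte markers summed to 66.7 to 73.1 and 23.7 to 29.7 FPKM, nearly all of it Fabp4, while Adipoq, Plin1 and 3 others averaged below 0.5 FPKM and Cidec was at 0 in the low glucose libraries. The 6 skeletal muscle markers summed to 0.730 to 1.72 FPKM in HFHG and 3.54 to 4.38 in low glucose, and Myod1 was at 0 in the HFHG libraries. The part of these cells in the values below was not tested. In bulk RNA, fewer cells of a type and less RNA per cell cannot be told apart.

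The promoter sequences of the genes with the largest differences and of the more abundant ones are shown first, to set side by side the bases just before the start of genes that were all higher in HFHG. RefSeq (GRCm38.p6) held the 250 bases before the start for 8 of the 10 genes, and Comp and Thbs1 had no entry. Each sequence runs 5′ to 3′ on the strand of the gene and ends at the base before the RefSeq start. For Dpt and Cilp2 that start lies inside the gene span given below, which comes from GENCODE. The Dpt window thus overlaps its span in part, and the Cilp2 window lies wholly within its span. Capitals mark matches, on either strand, to the 6 motifs searched. The TATA box was searched as TATAAA. A variant of that box, which shares most of its letters, was searched as TATATAA. The AP-1 site was searched as TGANTCA, and the E-box as CACGTG. The letters of the RUNX site were TGTGGT, and those of the GC box were GGGCGG.
Cilp (chr9:65264930-65265179, plus strand), promoter: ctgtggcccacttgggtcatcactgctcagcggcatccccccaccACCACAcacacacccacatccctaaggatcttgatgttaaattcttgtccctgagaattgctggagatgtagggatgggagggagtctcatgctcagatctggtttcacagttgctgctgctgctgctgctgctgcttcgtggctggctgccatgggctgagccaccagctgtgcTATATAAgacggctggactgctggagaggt
Dpt (chr1:164796413-164796662, plus strand), promoter: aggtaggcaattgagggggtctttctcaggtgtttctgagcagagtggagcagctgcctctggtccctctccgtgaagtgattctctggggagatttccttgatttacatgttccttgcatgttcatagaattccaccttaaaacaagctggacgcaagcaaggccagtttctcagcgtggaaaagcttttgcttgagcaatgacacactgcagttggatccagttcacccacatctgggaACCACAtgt
Thbs4 (chr13:92794819-92795068, minus strand), promoter: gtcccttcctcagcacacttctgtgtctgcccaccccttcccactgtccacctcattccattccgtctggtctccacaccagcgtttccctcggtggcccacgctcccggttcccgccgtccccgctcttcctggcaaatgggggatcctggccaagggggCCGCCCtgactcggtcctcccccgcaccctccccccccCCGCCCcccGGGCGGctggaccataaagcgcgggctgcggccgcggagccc
Tnc (chr4:64047016-64047265, minus strand), promoter of the upstream start site: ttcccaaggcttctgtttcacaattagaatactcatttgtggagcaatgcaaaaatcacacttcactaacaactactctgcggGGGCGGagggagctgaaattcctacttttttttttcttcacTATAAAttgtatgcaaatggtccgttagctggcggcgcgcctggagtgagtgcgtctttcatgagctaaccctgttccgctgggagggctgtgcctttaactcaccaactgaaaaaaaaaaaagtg

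The Cilp promoter held TATATAA with its first base at position -30 from the start, and TGTGGT on the opposite strand at -205. Of 32851 mouse promoters of the same length, 3.04% held TATATAA and 14.0% held TGTGGT. Dpt held TGTGGT on the opposite strand at -9, within the gene span given below. The Thbs4 promoter held 3 GC boxes, at -89, -51 and -42, a motif present in 32.7% of all promoters, and its GC content was 70.8% against a median of 52.4%. Tnc had 2 start sites, and the sequence shown for the upstream one held TATAAA at -126 and GGGCGG at -167. The window of the downstream Tnc start, which is not printed, held TATATAA at -29, close to the place it had in Cilp.

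The other promoters shared few of these letters. Thbs2 held TATAAA on the opposite strand at -126, a motif found in 12.4% of all promoters. Tnxb held TGANTCA at -55, which was in 6.75% of all promoters. Thbs3 held 1 GC box and Cilp2 held 2, and CACGTG, in 6.02% of all promoters, was in none of the 8 genes. These matches describe the letters only and are not shown to be sites.

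Cilp had the largest difference of the 10 genes and Dpt the next. Both were at low levels in low glucose medium and were 14.7 and 6.12 times as high in HFHG by the ratio of mean FPKM, and the libraries of the media did not overlap for either gene. Of all 11710 tested genes, with Cilp and Dpt themselves counted, 0.0342% had a log2 fold change at or above that of Cilp and 0.154% one at or above that of Dpt. These shares give their place only, since the genes were chosen with their values known.

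Cilp encodes cartilage intermediate layer protein 1, which binds TGF-beta and restrains signalling by TGF-beta and insulin-like growth factor. The gene lies on chromosome 9 at 65265180 to 65280605 of GRCm38, on the plus strand, and its closest GENCODE transcript has 10 exons. Its level was 7.20, 6.91, 6.78 and 6.43 FPKM in HFHG replicates 1 to 4 and 0.499, 0.530, 0.331 and 0.501 FPKM in low glucose replicates 1 to 4. Every HFHG library was thus far above every low glucose library, and the lowest value of all was in low glucose replicate 3. The means were 6.83 ± 0.319 and 0.465 ± 0.0906 FPKM (SD, n = 4), and the log2 fold change was 3.63 (SE 0.117, 95% interval 3.38 to 3.88).

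Summed over 4 libraries each, Cilp had 4229 reads with HFHG and 281 with low glucose. Relative to the library totals their ratio was 14.7, with an exact 95% interval of 13.0 to 16.6 that covers counting error only. Because the low glucose level was close to the pseudocount, the log2 fold change was 2.42 with a pseudocount of 1 and 3.89 with one of 0.01. Among all listed genes Cilp stood at rank 6362 by mean FPKM in HFHG and 11588 in low glucose.

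Cilp2 encodes the paralogue of CILP and lies on chromosome 8 at 69880369 to 69887687, on the minus strand. It was near the lower limit of what these libraries show, with 12, 16, 23 and 17 reads in HFHG replicates 1 to 4 and 8, 10, 5 and 3 reads in those of low glucose. The FPKM values were 0.0799, 0.112, 0.159 and 0.116 in the HFHG libraries, against 0.0580, 0.0685, 0.0351 and 0.0210 in the low glucose libraries. The media did not overlap, and the summed reads, 68 against 26, gave a ratio of 2.55 relative to the library totals with an exact 95% interval of 1.601 to 4.18 that covers counting error only. The coefficient of variation in HFHG was 27.8%, where counting alone gives 24.3%.

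Dpt encodes dermatopontin, a small matrix protein that binds decorin and TGF-beta and speeds the assembly of collagen fibrils. It lies on chromosome 1 at 164796644 to 164824266, on the plus strand, in 4 exons, and an antisense gene, Gm32569, overlaps 20298 bases of it on the other strand. Its level was 18.8, 19.2, 19.4 and 19.7 FPKM in HFHG and 3.23, 3.17, 3.48 and 2.72 FPKM in low glucose. The 4 HFHG libraries lay close together and far above the low glucose ones. The means were 19.3 ± 0.367 and 3.15 ± 0.314 FPKM (SD, n = 4), and the log2 fold change was 2.58 (SE 0.0655, 95% interval 2.44 to 2.72).

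**Figure D1:**
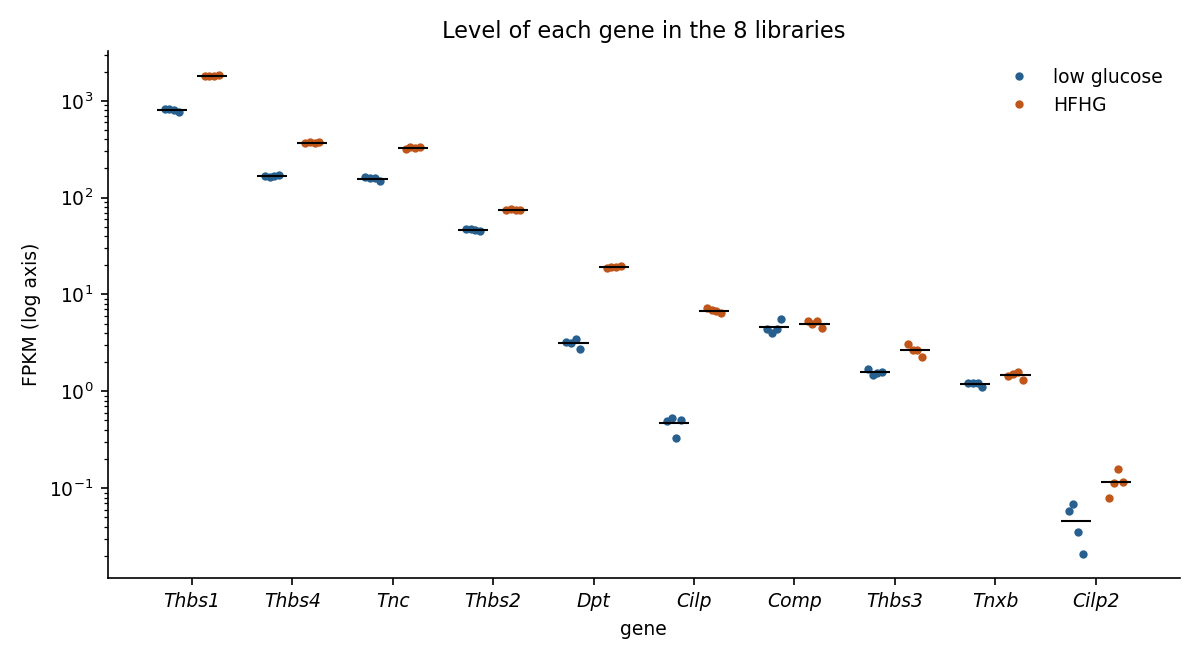
Level in FPKM (log axis) of each of the 10 genes in the 4 low glucose and 4 HFHG libraries, 1 point a library with a bar at the mean of the group, genes ordered by their HFHG mean. Thbs1 is the most abundant gene in both media, at 806 and 1821 FPKM on average, Cilp and Dpt have the widest gap between the media, and only Comp overlaps.

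Of the summed FPKM of the 10 genes, the thrombospondins made up most in both media. Thbs1, Thbs2, Thbs3, Thbs4 and Comp together came to 2273 ± 32.6 FPKM in HFHG and 1026 ± 28.6 in low glucose (SD, n = 4), and Thbs1 alone was 80.1% and 78.5% of those sums. The tenascin sum was 329 ± 5.92 FPKM in HFHG and 158 ± 6.72 in low glucose.

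Thbs1 encodes thrombospondin 1, a trimer that binds CD36 and CD47 on cells, inhibits the growth of blood vessels and activates latent TGF-beta. It lies on chromosome 2 at 118111876 to 118127133, on the plus strand, in 22 exons. Its level was 1783, 1821, 1820 and 1860 FPKM in HFHG and 825, 825, 813 and 759 FPKM in low glucose. The media were far apart, and low glucose replicate 4 was the lowest. With means of 1821 ± 31.6 and 806 ± 31.5 FPKM, the log2 fold change was 1.18 (SE 0.0278). Thbs1 took 1.06% of all reads in HFHG and 0.471% in low glucose, and it was the gene at rank 11 of all listed genes in HFHG and at rank 77 in low glucose.

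Thbs2 encodes the other trimeric thrombospondin, which restrains blood vessel growth and takes part in collagen fibril assembly and in the clearance of matrix metalloproteinases. It lies on chromosome 17 at 14665500 to 14694235, on the minus strand. Its level was 74.1, 76.0, 75.1 and 74.4 FPKM in HFHG and 47.2, 46.9, 46.2 and 45.2 FPKM in low glucose, with no overlap and little spread in either medium. The log2 fold change was 0.69 (SE 0.0255).

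Thbs3, Thbs4 and Comp encode the pentameric thrombospondins. Thbs4, a gene of tendon and of the tendon to muscle junction, lies on chromosome 13 at 92751590 to 92794818, on the minus strand. Its level was 368, 375, 364 and 371 FPKM in HFHG and 168, 163, 169 and 172 FPKM in low glucose, so that it was higher in each HFHG library than in any low glucose one. The log2 fold change was 1.14 (SE 0.0225). It was at rank 149 in HFHG and rank 360 in low glucose.

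Thbs3, which has a part in skeletal growth, lies on chromosome 3 at 89215180 to 89226837, on the plus strand. Its level was far lower, at 3.08, 2.70, 2.65 and 2.28 FPKM in HFHG and 1.70, 1.48, 1.56 and 1.58 FPKM in low glucose. The HFHG libraries spread more widely than the low glucose ones but did not overlap with them, and the log2 fold change was 0.72 (SE 0.0963). All 11658 bases of Thbs3 lie within the span of Mtx1 on the opposite strand. The libraries came from a stranded kit, but the strand setting of the counting is not given in the sources used here, so reads of Mtx1 may have entered the Thbs3 values.

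Comp, cartilage oligomeric matrix protein, brings collagen molecules together into fibrils and is abundant in loaded tendon. It lies on chromosome 8 at 70373558 to 70382066, on the plus strand, in 19 exons. Its level was 5.34, 4.93, 5.27 and 4.50 FPKM in HFHG and 4.38, 3.98, 4.42 and 5.62 FPKM in low glucose. The media overlapped, since the highest value of the 8 was in low glucose replicate 4. The means were 5.01 ± 0.383 and 4.60 ± 0.709 FPKM, and the log2 fold change was 0.13 (SE 0.0962, 95% interval -0.08 to 0.34). Without low glucose replicate 4, the library that stood apart on the second component and held that value, it was 0.23. It then passed an adjusted p-value of 0.05. Without low glucose replicate 2, which held the lowest value, it was 0.07 and did not pass. Both libraries were picked after their values were seen, so nothing is read from this passing. The 95% interval from all 8 libraries holds no change as well as a change of the size seen for Tnxb.

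Tnc encodes tenascin C, a hexamer that is made during development, after injury and under mechanical load. It lies on chromosome 4 at 63959785 to 64047015, on the minus strand, and an opposite-strand RNA, 8030451A03Rik, overlaps 67162 bases of it. Its level was 319, 330, 327 and 333 FPKM in HFHG and 162, 159, 159 and 147 FPKM in low glucose. The media did not overlap, and low glucose replicate 4 was again the lowest. The means were 327 ± 5.95 and 157 ± 6.67 FPKM, and the log2 fold change was 1.06 (SE 0.0303).

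Tnxb encodes tenascin X, which spaces collagen fibrils and whose loss causes a form of Ehlers-Danlos syndrome. It lies on chromosome 17 at 34670535 to 34719815, on the plus strand, in 41 exons. Its level was 1.45, 1.504, 1.598 and 1.30 FPKM in HFHG and 1.23, 1.22, 1.23 and 1.11 FPKM in low glucose. The lowest HFHG library lay just above the highest low glucose one, and the log2 fold change was 0.27 (SE 0.0949). This was the smallest of the differences past an adjusted p-value of 0.05, and it did not pass with quantile normalization (0.14) (log2 fold change), nor when HFHG replicate 2 (0.26) or 3 (0.23) was left out, nor without replicate 4 of low glucose (0.24).

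**Figure D2:**
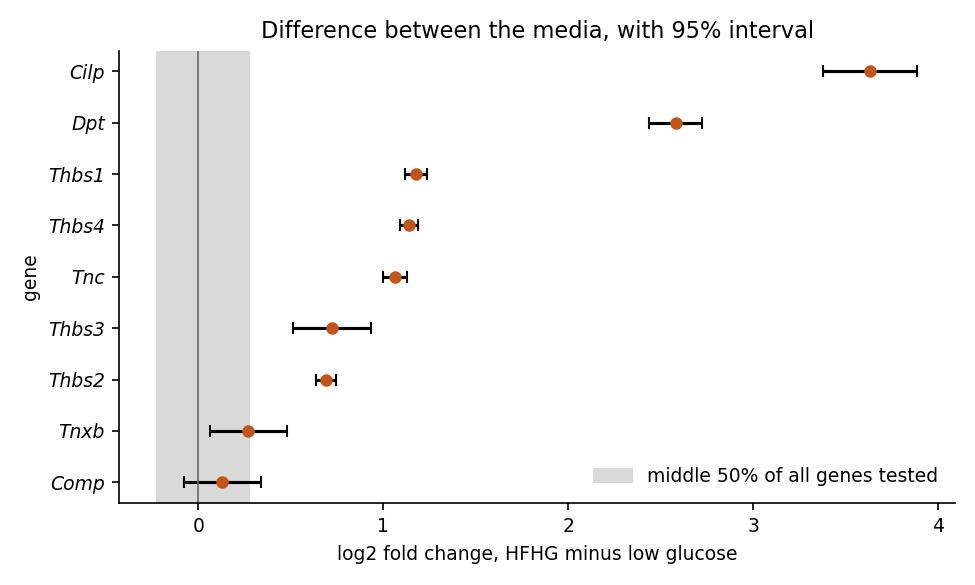
Log2 fold change (HFHG minus low glucose) with its 95% interval from the limma fit for the 9 genes that passed the filter, the grey band marking the middle 50% of all tested genes (-0.22 to 0.28). Cilp (3.63) and Dpt (2.58) lie farthest to the right, Thbs1, Thbs4 and Tnc lie together at 1.06 to 1.18, and the interval of Comp includes 0.

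Of the 9 genes that passed the filter, 8 had an adjusted p-value below 0.05 and a higher level in HFHG, beside 34.0% of all tested genes, and nothing is read from this count because the genes were chosen with it known. The study's methods ask for more than a 2-fold change and for p below 0.05 without adjustment. At that threshold 5 were higher (Cilp, Dpt, Thbs1, Thbs4 and Tnc), beside 3.68% of all tested genes. The libraries of the media did not overlap for any of the 9 tested genes but Comp, all higher in HFHG, beside 31.1% of all tested genes. Nor did they overlap for Cilp2, which did not pass the filter and is not covered by that share. The median log2 fold change of the 9 tested genes was 1.06, and that of all tested genes was 0.02. Tnxb (0.27) had the smallest difference past the threshold of the adjusted p-value, and Comp (0.13) was the only tested gene of the 10 that did not pass it.

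The order of the levels was much alike in the media for the abundant genes. In HFHG it ran Thbs1, Thbs4, Tnc, Thbs2, Dpt, Cilp, Comp, Thbs3, Tnxb and Cilp2. In low glucose the first 4 were the same, followed by Comp, Dpt, Thbs3, Tnxb, Cilp and Cilp2. Neighbours in the order did not overlap over the 4 libraries of either medium, and the closest were Thbs4 and Tnc, 1.13-fold apart in HFHG and 1.07-fold apart in low glucose.

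Ratios of related genes within a library do not depend on how the library was scaled. Thbs4 was 69.0 to 82.5 times the level of Comp in HFHG and 30.7 to 41.0 times in low glucose. Thbs1 was 24.0 to 25.01 times the level of Thbs2 in HFHG and 16.8 to 17.6 times in low glucose. In both pairs the more abundant gene had the larger difference between the media. Tnc was 205 to 255 times the level of Tnxb in HFHG and 129 to 132 times in low glucose. Cilp was 42.7 to 90.1 times the level of Cilp2 in HFHG and 7.74 to 23.9 times in low glucose, a ratio that rests on the few reads of Cilp2. The ratio did not overlap between the media for any of the 4 pairs.

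**Figure D3:**
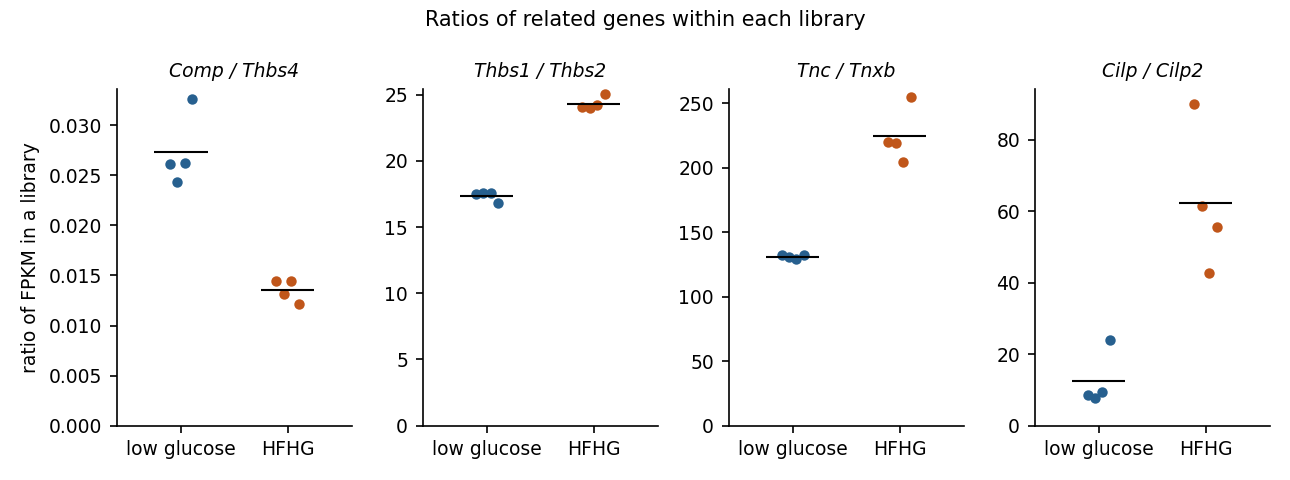
Ratio of FPKM within each library for 4 pairs of related genes, 1 point a library with a bar at the mean of the group and axes from 0. Comp over Thbs4 is lower in HFHG (0.0121 to 0.0145 against 0.0244 to 0.0326), and the other ratios are higher in HFHG, with no overlap.

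The genes whose pattern over the 8 libraries was nearest to that of Cilp, by the Euclidean distance of mean-centred log2(FPKM + 0.1), were Aldh1a1 (distance 0.448), which makes retinoic acid, Cyp2f2 (0.529), a cytochrome P450, and Rarres2 (0.575), the secreted signal chemerin. Aldh1a1 was at 51.2 ± 1.05 FPKM in HFHG and 4.56 ± 0.303 in low glucose. Cyp2f2 was at 12.3 ± 0.213 and 0.940 ± 0.178 FPKM, and Rarres2 at 44.6 ± 3.04 and 4.16 ± 0.736 FPKM. None of the 10 genes had a negative fold change, so no nearest genes were sought for a gene that was lower.

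In the annotation of the deposited table, all 10 genes carried the GO term extracellular region, as 8.98% of the annotated genes did, and 9 carried collagen-containing extracellular matrix, as 1.78% did. The term heparin binding was on Comp, Tnxb and Thbs1 to Thbs4, against 0.897% of all annotated genes. KEGG put the 5 thrombospondins and both tenascins into ECM-receptor interaction.

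Other matricellular genes moved in both directions. Of 25 listed, 17 passed the filter, and 12 rose and 3 fell in HFHG (adjusted p-value below 0.05, limma), with a median log2 fold change of 0.35 against 0.02 for all tested genes. Those were 70.6% and 17.6% of the list genes tested, beside 34.0% and 30.8% of all tested genes. Ccn5, a member of the CCN family that restrains cell growth, rose from 111 ± 5.45 to 401 ± 6.87 FPKM (log2 fold change 1.85, adjusted p = 2.68e-13). Ccn3, of the same family, fell from 12.0 ± 0.479 to 4.01 ± 0.489 FPKM (-1.57, adjusted p = 2.23e-09). Sparc, a collagen-binding protein needed for fibril assembly, rose from 873 ± 22.5 to 1570 ± 8.86 FPKM (0.85, adjusted p = 5.09e-12).

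The most abundant gene of that list was Spp1, which encodes osteopontin, a protein of bone and of inflammation. It was at 11639, 11182, 11104 and 11604 FPKM in HFHG and 7086, 7391, 7064 and 6952 FPKM in low glucose, without overlap (log2 fold change 0.68, adjusted p = 1.43e-10). With quantile normalization the difference was 0.04 and did not pass the threshold. That method gives values of equal rank the same level, so a gene that keeps its rank in every library shows little difference under it. The 8 genes of the list below the filter had exact two-sided permutation p-values of 0.0286 to 0.714, and the smallest, the lowest that 70 arrangements allow, belonged to Spock2.

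The cell surface receptors of these proteins did not move in 1 direction. Of 25 listed, 23 passed the filter, and 8 rose and 10 fell, with a median log2 fold change of -0.03. The shares were 34.8% and 43.5%, beside 34.0% and 30.8% of all tested genes. The balance depended on the scaling, since 8 rose and 7 fell when the libraries were rescaled to the same sum, and 8 rose and 6 fell with quantile normalization. Of the receptors of THBS1, Cd36 and Cd47 went in opposite directions. Cd36, which also takes up fatty acids, rose from 5.24 ± 0.276 to 11.7 ± 0.487 FPKM (log2 fold change 1.14, adjusted p = 1.24e-09), and Cd47, the signal that restrains phagocytosis, fell from 38.3 ± 0.379 to 20.8 ± 0.32 FPKM (-0.88, adjusted p = 4.69e-11).

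Itgb3, the integrin subunit that pairs with the alpha V chain to bind thrombospondins, osteopontin and vitronectin, fell from 14.3 ± 0.708 to 6.84 ± 0.170 FPKM (log2 fold change -1.05, adjusted p = 8.18e-10). Calr, calreticulin, a chaperone of the endoplasmic reticulum that binds THBS1 at the cell surface and the most abundant of the list, fell from 1798 ± 38.2 to 1033 ± 20.6 FPKM (-0.80, adjusted p = 1.20e-11). The 2 receptors below the filter had exact permutation p-values of 0.0571 and 0.286.

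The genes for TGF-beta ligands, their latency proteins, receptors and feedback moved in both directions. All 24 passed the filter, and 13 rose and 6 fell, with a median log2 fold change of 0.20. Among all tested genes 34.0% rose and 30.8% fell. Ltbp1, which holds latent TGF-beta in the matrix, rose from 2.58 ± 0.186 to 10.8 ± 0.336 FPKM (log2 fold change 2.03, adjusted p = 2.30e-11). The ligand gene Tgfb3 rose from 9.48 ± 0.382 to 30.04 ± 0.494 FPKM (1.65, adjusted p = 2.22e-12). Ltbp2, a relative of Ltbp1 found on elastic fibres, rose from 18.6 ± 0.830 to 52.2 ± 0.906 FPKM (1.48, adjusted p = 3.43e-12). The 6 that fell were Tgif1 (log2 fold change -1.01), Tgfbr1 (-0.70), Tgfb1 (-0.27), Smad7 (-0.23), Pmepa1 (-0.13) and Tgfbr2 (-0.12). Of these, the ligand gene Tgfb1 fell from 55.4 ± 3.55 to 45.8 ± 1.63 FPKM, and its mean was above that of Tgfb3 in both media.

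The matrix partners were mostly higher. Of 28 listed collagens, proteoglycans and other matrix genes, 19 passed the filter, and 14 rose and 3 fell, with a median log2 fold change of 0.47. As shares of the tested list genes these were 73.7% and 15.8%, beside 34.0% and 30.8% of all tested genes. Col12a1, a collagen on the surface of fibrils, rose from 34.1 ± 3.21 to 142 ± 4.88 FPKM (log2 fold change 2.06, adjusted p = 1.16e-11). Col6a1, a chain of the beaded collagen around cells, rose from 18.2 ± 0.729 to 57.1 ± 0.949 FPKM (1.65, adjusted p = 8.45e-13). Col5a1, a chain that sets fibril diameter, rose from 40.9 ± 2.23 to 112 ± 1.66 FPKM (1.45, adjusted p = 5.01e-12). Bgn, biglycan, the most abundant, rose from 1390 ± 30.4 to 1671 ± 14.97 FPKM (0.27, adjusted p = 1.72e-07). Of the 9 genes below the filter, Col9a3 was at the smallest exact permutation p of 0.0286, and the others reached up to 0.943.

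The proteases that cut these proteins or their partners were divided. Of 18 listed, 15 passed the filter, and 8 rose and 5 fell, with a median log2 fold change of 0.25. That was 53.3% higher and 33.3% lower, beside 34.0% and 30.8% of all tested genes. Ctsk, cathepsin K, the collagen-degrading protease best known from osteoclasts, fell from 344 ± 11.03 to 98.4 ± 2.36 FPKM (log2 fold change -1.80, adjusted p = 1.23e-13). Adamts12, which cuts COMP, rose from 2.77 ± 0.205 to 6.99 ± 0.429 FPKM (1.31, adjusted p = 4.37e-09). Mmp19 rose from 18.9 ± 0.542 to 36.2 ± 1.47 FPKM (0.93, adjusted p = 3.27e-10). The most abundant, the collagenase Mmp13, fell from 2652 ± 73.9 to 1421 ± 21.5 FPKM (-0.90, adjusted p = 5.89e-12).

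**Figure D4:**
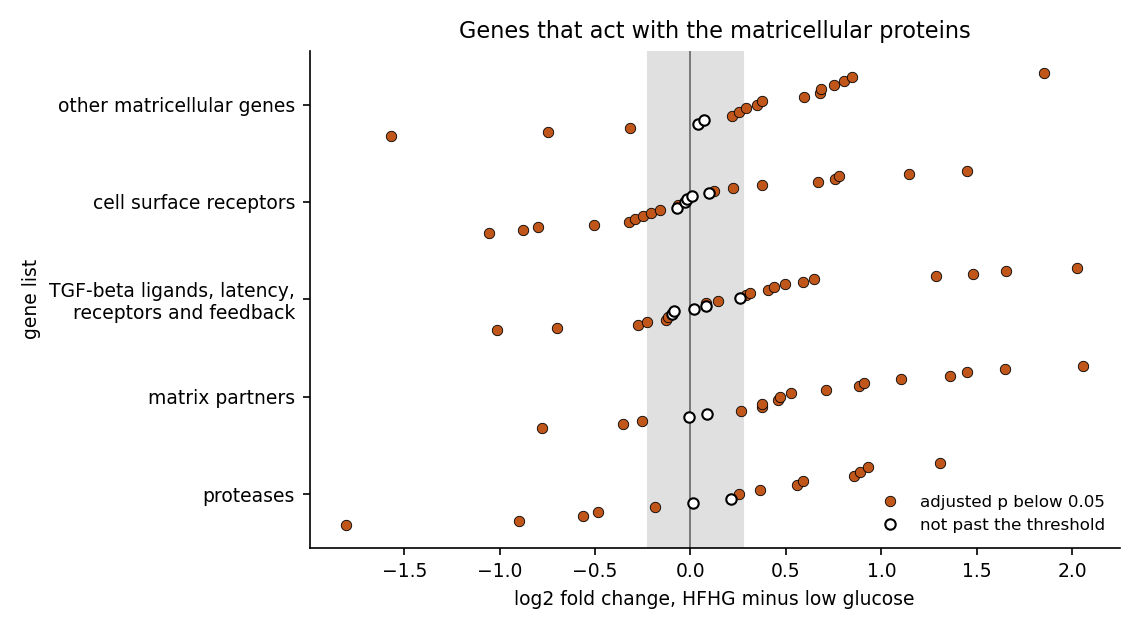
Log2 fold change (HFHG minus low glucose) of each tested gene of the 5 lists of related genes, 1 point a gene spread vertically for display, filled where the adjusted p-value is below 0.05 and open where it is not, with the middle 50% of all tested genes as a grey band. Matrix partners (14 higher, 3 lower) and other matricellular genes (12 and 3) lie mostly to the right, and receptors (8 and 10) on both sides.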

How the data were processed

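mRNA of TSCs was sequenced in 4 HFHG and 4 low glucose libraries, labelled by medium and replicate number. The authors deposited FPKM values (reads divided by gene length and by the mapped reads of the library) for 19301 genes, 1 column per library. The submitters' processing notes name HISAT2 2.1.0 and mm10, and the counting program, its annotation and its strand setting are not given in the sources used here. Whole reads were recovered from the FPKM for 99.9% of the genes (within 1e-05 of a read, with a small rounding allowance in proportion to the count) and were used for depth, for the intervals of low genes and for an alternative count-based fit. Listed genes held 99.8% of the reads.

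limma 3.58.1 in R 4.3.3 (lmFit, eBayes with trend) was run on log2(FPKM + 0.1) for genes with at least 0.5 FPKM in at least 4 libraries, with Benjamini-Hochberg adjustment over all 11710, and tested on simulated data. The cutoff in the study's methods, more than 2-fold with p below 0.05 before adjustment, was an alternative. The others were pseudocounts of 1 and 0.01, no filter, a minimum of 1 FPKM, 3 other scalings, the replicate block, voom on the recovered reads and each library left out in turn. Intervals of reads cover counting error only. List genes below the filter were compared by an exact two-sided permutation test. Positions come from GENCODE M21 (GRCm38, the build also called mm10) and promoters from RefSeq. The text names every one of the 10 genes. For each list it names the 3 genes with the largest absolute change among those called at 0.05 with a mean of at least 1 FPKM, and the most abundant gene, apart from 1 result that is not reported here. The 10 genes and the lists were chosen with earlier results of these data known. Spock2, Col9a3, Mtx1, the antisense genes and the TGF-beta genes that fell were named after their values or overlaps were seen.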

Additional observations from a re-analysis of the deposited data

Results flagged for a closer look

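Of 68 groups of 4 libraries checked, 6 had 1 library far from the other 3, measured as the gap over the range of the group against Dixon's 95% critical value, which chance passes in about 1 in 20 groups. In low glucose, Cilp was lowest in replicate 3 at 0.331 FPKM (others 0.499 to 0.530). Tnxb was lowest in replicate 4 at 1.11 FPKM (others 1.22 to 1.23). Adamts12 was highest in replicate 2 at 3.07 FPKM (others 2.63 to 2.69). Bgn was highest in replicate 4 at 1436 FPKM (others 1372 to 1379). The ratio of Thbs1 to Thbs2 was lowest in replicate 4 at 16.8 (others 17.5 to 17.6). The ratio of Cilp to Cilp2 was highest in replicate 4 at 23.9 (others 7.74 to 9.44), where Cilp2 had 3 reads. All 6 were low glucose libraries, and 4 were the library that stood apart on the second principal component. The cause was not tested.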

How the results depend on the processing

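At a fold above 2 and an unadjusted p-value below 0.05, 5 of the 9 tested matricellular genes passed (8 with the adjusted p-value). So did 2 of 17 other matricellular genes (15), 3 of 23 receptors (18) and 5 of 24 TGF-beta genes (19). Of the matrix partners 5 of 19 passed (17), and of the proteases 2 of 15 (13). Fewer passed because the threshold asks for a larger change. Among all tested genes 3.68% passed it as higher in HFHG and 1.65% as lower, against 34.0% and 30.8% with the adjusted p-value. No single-gene direction that was checked reversed under any alternative. The balance of the receptors did turn. It was 8 higher and 10 lower in the main fit, 8 and 7 when rescaled to the same sum, and 8 and 6 with quantile normalization. With 1 library left out in turn, the counts ranged from 7 to 8 for the 10 genes, 15 to 15 for other matricellular genes, 15 to 18 for receptors, 18 to 20 for TGF-beta genes, 17 to 17 for matrix partners and 13 to 14 for proteases. Of the single-gene alternatives, 487 kept their side of the threshold, 1 gained it (Comp without low glucose replicate 4, 0.23) and 5 lost it (Tnxb in 4 settings, Spp1 with quantile normalization). The counts of the GO and KEGG lists, and the choice to give Comp without low glucose replicates 4 and 2, were added after seeing the data.

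The deviations of same-numbered libraries had correlations of -0.0736 to -0.00558, and those of differently numbered ones -0.0462 to 0.0696. The replicate numbers thus gave no sign of a pairing. These values cannot show whether same-numbered libraries shared an animal or a culture. With the replicate number as a block, 8 of the 10 genes were called, as without it. FPKM of Cilp2, and of Cilp in low glucose, rest on few reads, which limits their precision.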

Other observations

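Beyond the lists above, the deposited annotation gives wider groups of matrix genes, counted after the data were seen. Of the 302 other genes with the GO term collagen-containing extracellular matrix, 185 passed the filter on low values, and 114 of them rose and 46 fell in HFHG (adjusted p-value below 0.05, limma), with a median log2 fold change of 0.33 against 0.02 for all tested genes. Of the 81 other genes in the KEGG pathway ECM-receptor interaction, 44 passed the filter, and 24 rose and 14 fell, with a median of 0.30. Among all tested genes 34.0% rose and 30.8% fell.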
